A study of Mus musculus with 12 samples.

Results

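AML12 cells, an immortalized hepatocyte line derived from a mouse transgenic for human TGFA, were profiled by polyA RNA sequencing after 24 h of exposure to copper, a bile acid, or both. The genes described here are Trp53, which encodes the transcription factor p53, and 9 of its best known arrest and stress targets, namely Mdm2, Cdkn1a, Ccng1, Zmat3, Phlda3, Sesn1, Trp53inp1, Plk2 and Gdf15. These 10 genes were chosen by name, all 10 were among the 24824 genes listed, and all 10 were among the 10615 tested genes, whose mean level over the 12 libraries was at least 1 FPKM. Group A was untreated, group B received CuCl2 at 300 μM with the copper carrier elesclomol (ES) at 40 nM, group C received the same CuCl2 and ES plus taurocholic acid (TCA) at 1000 μM, and group D received TCA at 1000 μM alone. Each group had 3 libraries, all labelled wild type, and no source said whether these came from separate cultures, so p-values measured the spread between these libraries only. The comparisons addressed how copper loading changed hepatocytes, and whether TCA altered that response.

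Libraries held 38298850 to 39782135 reads in groups A and D and 29115006 to 34912742 in groups B and C, as recovered from the spacing of the deposited values. The median of all tested genes was lower in group B than in group A by 1.10 on the log2 scale, so that most genes fell relative to the minority that rose, and each change under CuCl2/ES is read against that median. The hepatocyte label was only partly borne out by defining markers. Of 10 hepatocyte markers present in the table, 4 (Apoe, Foxa2, Krt8 and Krt18) had a mean of at least 1 FPKM, whereas Alb, Apob, Fgb, Ahsg and Hnf4a were at 0 in every library of groups A and D and did not exceed 0.110 FPKM in any library of groups B and C. Apoa1 was at a mean of 0.00863 FPKM in group A, 1.86 in B, 1.11 in C and 0 in D, and Apoe at 1.73, 7.96, 20.5 and 3.54, while Krt8 and Krt18 made up most of the summed level. The summed hepatocyte markers ran from 602.1 to 656.4 FPKM in group A, 244.9 to 297.9 in group B, 193.2 to 229.9 in group C and 707.2 to 725.0 in group D. Summed stellate and fibroblast markers ran from 139.2 to 205.0 FPKM without treatment but from 3.37 to 5.73 under CuCl2/ES, and summed endothelial markers from 0.922 to 1.16 and from 6.76 to 10.5. Summed cholangiocyte markers ran from 230.5 to 325.8 FPKM in group A, 111.3 to 139.9 in B, 130.5 to 136.3 in C and 157.9 to 245.5 in D, and summed macrophage markers from 72.5 to 102.4, 24.6 to 29.1, 24.1 to 36.8 and 25.5 to 37.0. These sums hide single markers. The cholangiocyte markers Krt19 and Sox9 went opposite ways in group B against A (log2 changes of FPKM + 1 of -1.78 and 2.19). Of 4 macrophage markers only 1, Cd68, had a mean of at least 1 FPKM. The part of these cell type markers in the results below was not tested, and in such bulk RNA fewer cells of a kind and less RNA per cell cannot be told apart.

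p53 is a transcription factor that is kept scarce by MDM2, a ubiquitin ligase that marks it for degradation. Stress signals stabilize the p53 protein, which then activates genes that halt the cell cycle, repair damage or promote death, and among them Mdm2 itself, which closes a feedback loop. Because this control acts mainly on the protein, Trp53 transcript levels and p53 activity are separate quantities, and protein was not measured in these libraries. In liver, p53 is known for restraining proliferation and for adjusting metabolism after damage.

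p53 binds DNA through a consensus decamer, and a full binding site joins a pair of decamers. The decamer was searched as RRRCWWGYYY (R is A or G, W is A or T, Y is C or T). This pattern reads the same on both strands. RefSeq promoter windows of 300 bases (250 before the start and 50 after it, build GRCm38.p6) were given for 8 of the 10 genes, 11 windows in all, and Zmat3 and Trp53inp1 were the genes with no window. A decamer was present in 5 of the 11 windows, in Trp53, Mdm2, Cdkn1a, Ccng1 and Sesn1, and in 8.36% of all 32851 windows of the same length. The windows of Trp53, of a target that rose under CuCl2/ES (Mdm2), of one that fell (Ccng1) and of one with no call (Cdkn1a) are shown because all 4 carry the decamer, 5′ to 3′ in the gene's own orientation, with decamers in capitals: Trp53 (chr11:69580109-69580408, plus strand), Mdm2 (chr10:117710709-117711008, minus strand), Cdkn1a (chr17:29090729-29091028, plus strand) and Ccng1 (chr11:40755237-40755536, minus strand).
Trp53: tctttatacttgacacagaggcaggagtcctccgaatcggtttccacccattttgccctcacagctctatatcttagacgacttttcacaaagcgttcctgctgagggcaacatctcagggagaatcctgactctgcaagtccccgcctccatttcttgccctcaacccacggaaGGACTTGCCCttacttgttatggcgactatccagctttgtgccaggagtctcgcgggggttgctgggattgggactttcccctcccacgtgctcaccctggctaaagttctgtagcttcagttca
Mdm2: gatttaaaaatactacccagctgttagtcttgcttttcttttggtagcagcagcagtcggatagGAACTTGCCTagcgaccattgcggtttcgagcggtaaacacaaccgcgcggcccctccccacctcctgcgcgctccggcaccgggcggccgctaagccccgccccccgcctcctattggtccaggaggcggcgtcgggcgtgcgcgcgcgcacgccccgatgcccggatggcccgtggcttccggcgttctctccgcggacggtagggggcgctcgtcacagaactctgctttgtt
Cdkn1a: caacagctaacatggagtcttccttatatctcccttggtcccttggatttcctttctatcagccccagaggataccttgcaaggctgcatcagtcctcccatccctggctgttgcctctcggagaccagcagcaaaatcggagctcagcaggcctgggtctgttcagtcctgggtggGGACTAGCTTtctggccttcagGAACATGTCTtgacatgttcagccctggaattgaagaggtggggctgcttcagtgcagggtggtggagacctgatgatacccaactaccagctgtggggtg
Ccng1: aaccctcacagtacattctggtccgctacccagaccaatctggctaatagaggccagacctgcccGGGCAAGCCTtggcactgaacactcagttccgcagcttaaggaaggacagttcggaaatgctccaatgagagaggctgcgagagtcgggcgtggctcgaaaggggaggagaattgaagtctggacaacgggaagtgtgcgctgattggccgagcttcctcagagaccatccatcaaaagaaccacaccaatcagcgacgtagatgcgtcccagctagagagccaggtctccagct
The decamer began 75 bases before the start in Trp53, 186 in Mdm2 and 185 in Ccng1. The Cdkn1a window held 2 decamers, 73 and 51 bases before its start and 12 bases apart, and a pair spaced by at most 13 bases was found in 24 of the 32851 windows (0.0731%). Only exact matches were counted. In the Cdkn1a window the 10 bases directly after the second decamer missed the pattern only at their first letter. This window lies 2790 bases upstream of a second Cdkn1a window that held no decamer. The windows of Phlda3, Plk2 and Gdf15 held none, and the heat shock element GAANNTTC, searched on both strands, was found in 1 of the 11 windows, a Sesn1 window, against 7.86% of all windows. A match is a run of letters and not a measured site of binding.

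Trp53 was abundant in untreated cells and was highest under CuCl2/ES. Its FPKM (fragments per kilobase of transcript, scaled to the mapped total of the library, a relative level corrected for length) was 110.6, 132.1 and 112.9 in group A, 216.8, 227.6 and 214.6 in group B, 167.0, 164.2 and 164.1 in group C, and 148.8, 164.6 and 153.6 in group D. The order of group means was therefore B, C, D and A, with groups C and D overlapping and all other neighbours apart. Mdm2, the ligase that limits p53, was at 20.3, 17.8 and 19.9 FPKM in group A, 57.1, 53.6 and 58.2 in group B, 52.7, 47.5 and 50.7 in group C, and 20.1, 18.6 and 20.8 in group D. All 6 libraries with CuCl2/ES thus stood above all 6 without it, with groups A and D overlapping.

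Cdkn1a encodes p21, an inhibitor of cyclin-dependent kinases and the main effector of p53-driven arrest. It was the most abundant of the 10 in groups A, C and D and was at 221.3, 175.4 and 233.6 FPKM in group A, 212.9, 213.3 and 220.8 in group B, 227.0, 230.4 and 228.8 in group C, and 264.8, 214.7 and 272.4 in group D. The libraries of groups A and B overlapped, as did those of C and D, and the wide spread within A and D came from their replicate 2, the lowest in each.

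Plk2, a polo-like kinase of the checkpoint response, and Gdf15, a secreted stress hormone of the TGF-β superfamily, followed the pattern of Mdm2. Plk2 was at 34.6, 38.5 and 37.6 FPKM in group A, 193.7, 234.3 and 198.1 in group B, 150.5, 179.4 and 154.6 in group C, and 50.2, 46.5 and 50.3 in group D. Its 4 groups did not overlap. Gdf15 was at 26.3, 13.2 and 28.8 FPKM in group A, 77.7, 92.6 and 78.5 in group B, 40.5, 54.7 and 40.4 in group C, and 29.8, 19.3 and 32.9 in group D. Groups A and D overlapped, and replicate 2 was the lowest library in A and D and the highest in B and C.

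The other 5 targets were lower in both groups with CuCl2/ES than in either group without it. Ccng1, encoding cyclin G1, which recruits a phosphatase to MDM2, was at 85.6, 71.9 and 75.1 FPKM in group A, 3.30, 2.82 and 2.68 in group B, 3.02, 2.54 and 3.71 in group C, and 66.5, 63.5 and 62.1 in group D. Zmat3, an RNA-binding zinc finger protein, was at 10.03, 8.58 and 9.95 FPKM in group A, 0.268, 0.389 and 0.332 in group B, 0.398, 0.254 and 0.339 in group C, and 10.3, 9.25 and 10.7 in group D. In both genes the libraries with CuCl2/ES were far below those without it, and B and C overlapped. Phlda3, which antagonizes AKT at the membrane, was at 29.9, 30.7 and 31.6 FPKM in group A, 0.989, 0.746 and 0.886 in group B, 1.24, 1.25 and 0.908 in group C, and 35.2, 34.1 and 33.4 in group D. Sesn1, a sestrin that restrains mTORC1, was the least abundant in untreated cells, at 3.07, 4.23 and 3.62 FPKM in group A, 0.822, 0.402 and 0.487 in group B, 0.771, 0.480 and 0.427 in group C, and 2.63, 3.26 and 2.92 in group D. Groups B and C overlapped for both.

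Trp53inp1, which acts in autophagy and in the death arm of the response, was at 13.95, 13.05 and 11.1 FPKM in group A, 2.11, 1.33 and 1.94 in group B, 3.68, 2.95 and 4.08 in group C, and 9.75, 10.7 and 11.03 in group D. Here no neighbouring groups overlapped, and C stood above B. The lowest values rested on few reads, with 35 to 46 per library for Phlda3 in group B, 43 to 87 for Sesn1 and 69 to 101 for Zmat3, whereas no other gene of the 10 fell below 231 reads in any library.

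**Figure D1:**
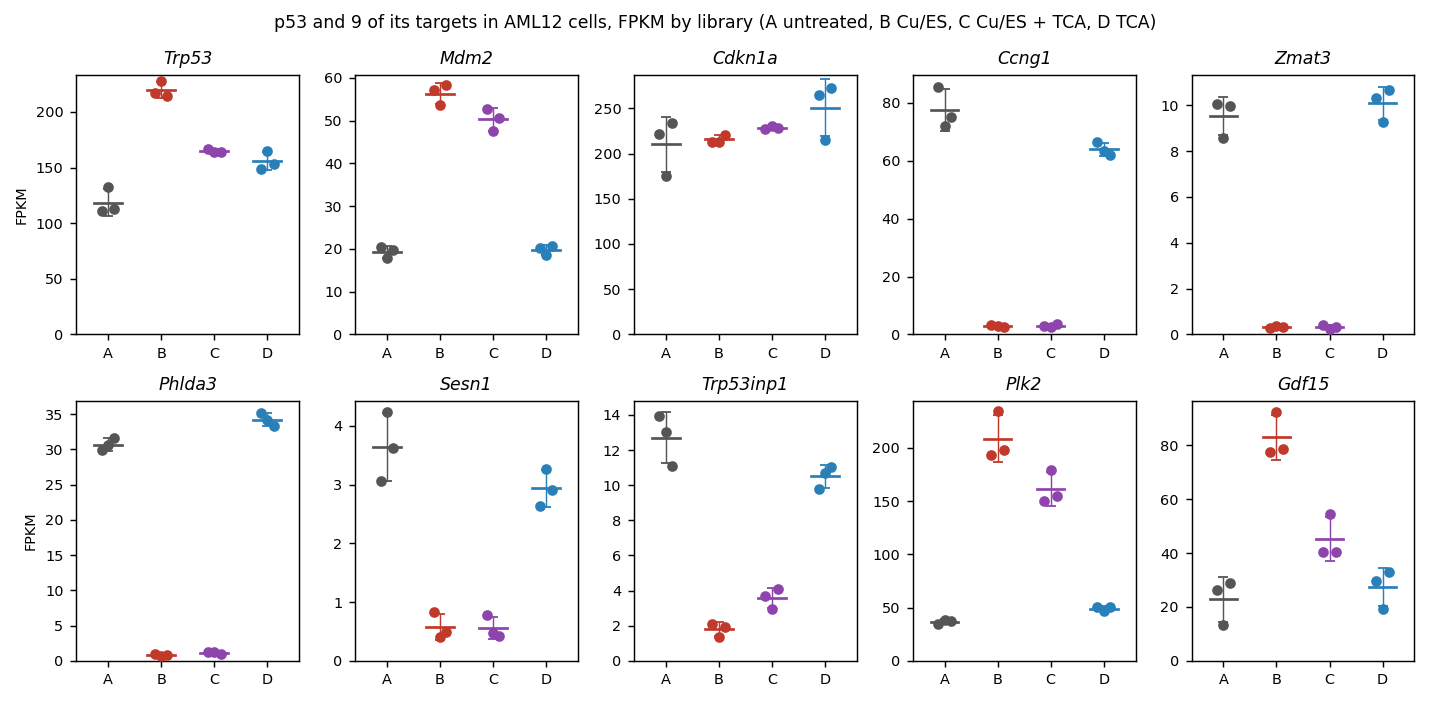
FPKM of Trp53 and its 9 targets in each library (points), with the mean and SD of the 3 libraries of each group (A untreated, B CuCl2/ES, C CuCl2/ES with TCA, D TCA). Mdm2, Plk2 and Gdf15 were highest with CuCl2/ES, Ccng1, Zmat3, Phlda3, Sesn1 and Trp53inp1 lowest, and Cdkn1a lay between 175.4 and 272.4 FPKM in all 12 libraries.

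In FPKM, some targets rose under CuCl2/ES while others fell, as most tested genes did. Mdm2 rose 2.91-fold, from 19.3 ± 1.36 to 56.3 ± 2.40 FPKM (SD, n = 3), Plk2 5.66-fold, from 36.9 ± 2.08 to 208.7 ± 22.3, and Gdf15 3.64-fold, from 22.8 ± 8.38 to 82.9 ± 8.37. Phlda3 fell 35.1-fold, from 30.7 ± 0.860 to 0.874 ± 0.122 FPKM, Zmat3 28.9-fold, from 9.52 ± 0.814 to 0.330 ± 0.060, and Ccng1 26.4-fold, from 77.5 ± 7.18 to 2.94 ± 0.326. Trp53inp1 was 7.08-fold lower and Sesn1 6.38-fold lower. Trp53 itself was 1.85-fold higher, going from 118.5 ± 11.8 to 219.7 ± 6.96.

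On the log2 scale of FPKM + 1, which understates the change of low genes, the limma fit gave Mdm2 a change of 1.497 (SE 0.07, adjusted p = 5.68e-11), Plk2 2.47 (SE 0.09, adjusted p = 2.34e-12) and Gdf15 1.89 (SE 0.24, adjusted p = 3.94e-06). Trp53 passed the adjusted p of 0.05 but not the log2 fold threshold of 1, with a change of 0.89 (SE 0.07, adjusted p = 1.60e-08). Ccng1 changed by -4.32 (SE 0.10), Phlda3 by -4.08 (SE 0.08), Zmat3 by -2.98 (SE 0.09), Trp53inp1 by -2.30 (SE 0.12) and Sesn1 by -1.56 (SE 0.13), with adjusted p from 3.89e-14 to 1.88e-08. Thus 3 of the 10 were higher and 5 lower past both thresholds, against a background of 10.1% of all tested genes higher and 52.96% lower (63.04% in either direction). Of these 5, Zmat3 (0.330), Sesn1 (0.570) and Phlda3 (0.874) had means under 1 FPKM in group B. They met the filter through groups A and D, where they were high, so their calls are not independent of it. The same holds in the lists below for Ei24, Fas, Sesn3, Xpc, Ercc5, Psrc1, Ak1, Dcxr and Steap3 among further targets. It holds for Pml and Atr among genes that control p53. The counts of lower genes in those lists, given below, share this limit. The split of all genes depended on scaling, with 2753 higher and 2710 lower after median-ratio scaling, where 5 of the 10 were higher and 4 lower. Libraries of groups A and B did not overlap for 9 of the 10, which was also true of 92.9% of all tested genes.

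Cdkn1a was the exception among the targets, with 210.1 ± 30.7 FPKM in untreated cells against 215.7 ± 4.44 under CuCl2/ES, a log2 change of 0.05 (SE 0.10, 95% interval -0.17 to 0.27, adjusted p = 0.66). Its call depended on how libraries were scaled, since the change was 1.33 after median-ratio scaling (adjusted p = 7.30e-08) and 1.25 in limma-voom on recovered reads, but -0.32 in TPM (transcript levels rescaled to a fixed sum per library, adjusted p = 6.57e-03) and -0.40 after quantile normalization (adjusted p = 3.02e-03). Relative to the median gene Cdkn1a was higher by 1.15 and Trp53 by 1.99, and 77.0% of tested genes had a lower fold change than Cdkn1a. The size of the Trp53 change likewise ran from 0.52 in TPM to 2.17 after median-ratio scaling, always higher in group B. Sesn1 was lower than the median gene by 0.46, and after quantile normalization its change was -0.24 (adjusted p = 0.104). It was -0.82 with median ratios (adjusted p = 6.03e-05, median gene -0.03) and -1.52 in limma-voom (adjusted p = 1.76e-04, median gene -0.13). Mdm2, Plk2, Gdf15, Ccng1, Zmat3, Phlda3 and Trp53inp1 kept their directions and both thresholds under all 4 of these other scalings.

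Wrap53 lies head to head with Trp53 and overlaps it, and whether reads were counted by strand was not given in the sources used here, so reads of the pair may not be separable. Wrap53 went from 5.26 ± 0.626 FPKM in untreated cells to 3.85 ± 0.160 under CuCl2/ES, far below Trp53 in both. Its log2 change was -0.36 (SE 0.12, adjusted p = 9.22e-03), and it turned positive under median-ratio (0.68), quantile (1.01) and limma-voom (0.75) scaling.

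The comparison of group C with group D asked about CuCl2/ES with TCA present in both groups, and it shared no library with that of group B with group A. Mdm2 was 2.54-fold higher in C (log2 change 1.30, SE 0.07, adjusted p = 2.51e-10) and Plk2 3.30-fold higher (1.70, SE 0.09, adjusted p = 9.71e-11). Ccng1 was 20.7-fold lower, Zmat3 30.5-fold, Phlda3 30.2-fold, Sesn1 5.25-fold and Trp53inp1 2.94-fold lower, with log2 changes of -3.999, -3.06, -4.05, -1.34 and -1.34. These 2 higher and 5 lower genes compare with 11.2% and 53.3% of all tested genes (64.5% in either direction). Zmat3 (0.330) and Sesn1 (0.559) had means under 1 FPKM in group C and met the filter through groups A and D. Their calls here are therefore not independent of the filter either. Sesn1 and Trp53inp1 lay close to the median gene of -1.12, and neither passed after quantile normalization (-0.05, adjusted p = 0.73, and -0.06, adjusted p = 0.64), nor did Trp53inp1 after median-ratio scaling (-0.26, adjusted p = 0.0591). Sesn1 passed the adjusted p after median-ratio scaling (-0.64, adjusted p = 5.01e-04). Both did in limma-voom, Sesn1 at -1.23 (adjusted p = 1.18e-03) and Trp53inp1 at -0.36 (adjusted p = 0.0176). Gdf15 was 1.66-fold higher (log2 change 0.73, SE 0.24, adjusted p = 0.0118), a call lost without C replicate 2 (adjusted p = 0.0526) or D replicate 2 (adjusted p = 0.0687), in TPM (adjusted p = 0.0841) and with no filter on low values (adjusted p = 0.0515).

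Trp53 did not differ beyond its spread between groups C and D, at 165.1 ± 1.65 and 155.7 ± 8.13 FPKM (log2 change 0.09, 95% interval -0.07 to 0.24, adjusted p = 0.255). Scaling set this call too, with values from -0.20 in TPM and after quantile normalization to 1.34 after median-ratio scaling. Cdkn1a, at 228.7 ± 1.70 and 250.7 ± 31.3 FPKM, gave -0.12 (95% interval -0.35 to 0.10, adjusted p = 0.26), with values from -0.50 after quantile normalization to 1.13 after median-ratio scaling.

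**Figure D2:**
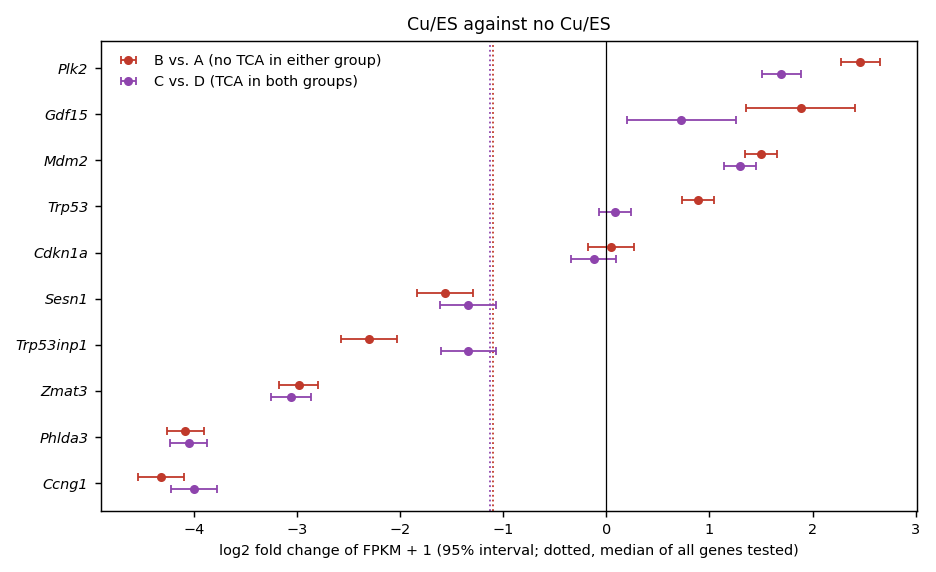
Log2 fold changes of FPKM + 1 with 95% intervals for CuCl2/ES without TCA (B vs. A) and with TCA (C vs. D), with dotted lines at the median of all tested genes (-1.10 and -1.12). Mdm2, Plk2 and Gdf15 lie right of 0 and 5 targets left of the dotted lines in both comparisons, and Trp53 and Cdkn1a lie near 0 for C vs. D, where their direction depends on scaling.

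The ratio of a target to Trp53 within a library is unaffected by scalings that multiply all genes of a library by the same factor, which quantile normalization does not. In log2 units of FPKM, Cdkn1a was above Trp53 in group A, at 1.001, 0.41 and 1.05, and level with it in group B, at -0.03, -0.09 and 0.04, a difference of -0.85 (SE 0.21). On log2 of FPKM + 1, Trp53 lay 1.99 and Cdkn1a 1.15 above the median gene. A gene at the median would thus fall further against Trp53 than Cdkn1a did. Mdm2 relative to Trp53 went from -2.44, -2.89 and -2.51 without treatment to -1.93, -2.09 and -1.88 with CuCl2/ES, a difference of 0.65 (SE 0.15). The difference was 1.60 (SE 0.08) for Plk2 and 1.04 (SE 0.44) for Gdf15 (0.61 without A replicate 2), whereas Phlda3 differed by -6.04 (SE 0.16), Zmat3 by -5.76 (SE 0.21), Ccng1 by -5.62 (SE 0.18), Trp53inp1 by -3.74 (SE 0.26) and Sesn1 by -3.62 (SE 0.33). All 9 differences between groups B and A were without overlap and reached p = 0.1, the smallest that an exact two-sided permutation test of 3 against 3 libraries allows, so none could pass 0.05. In all, 27 such ratios were compared, 18 stood at that p, and the lowest adjusted p was 0.15. The share of all tested genes without overlap in a ratio to Trp53 was not computed.

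With TCA added to CuCl2/ES, the ratio to Trp53 was higher for Trp53inp1 by 1.42 (SE 0.27), Phlda3 by 0.78 (SE 0.20), Cdkn1a by 0.50 (SE 0.04), Ccng1 by 0.47 (SE 0.19) and Mdm2 by 0.25 (SE 0.07), and lower for Gdf15 by -0.47 (SE 0.16), each with no overlap between libraries. Trp53 itself lay 0.38 below the median gene here (log2 of FPKM + 1), so a gene at the median would also gain on it. The Mdm2 difference was smaller than this. Plk2 kept step with Trp53 here, with a difference of 0.04 (SE 0.10, exact permutation p = 0.6), and under TCA alone, with 0.01 (SE 0.10, exact permutation p = 0.9). Under TCA alone the ratios of Sesn1 (-0.70, SE 0.08), Ccng1 (-0.67, SE 0.16) and Trp53inp1 (-0.67, SE 0.13) were lower without overlap, while those of Mdm2, Cdkn1a, Zmat3, Phlda3 and Gdf15 overlapped. Trp53 lay 0.41 above the median gene under TCA alone, so a gene at the median would fall against it.

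**Figure D3:**
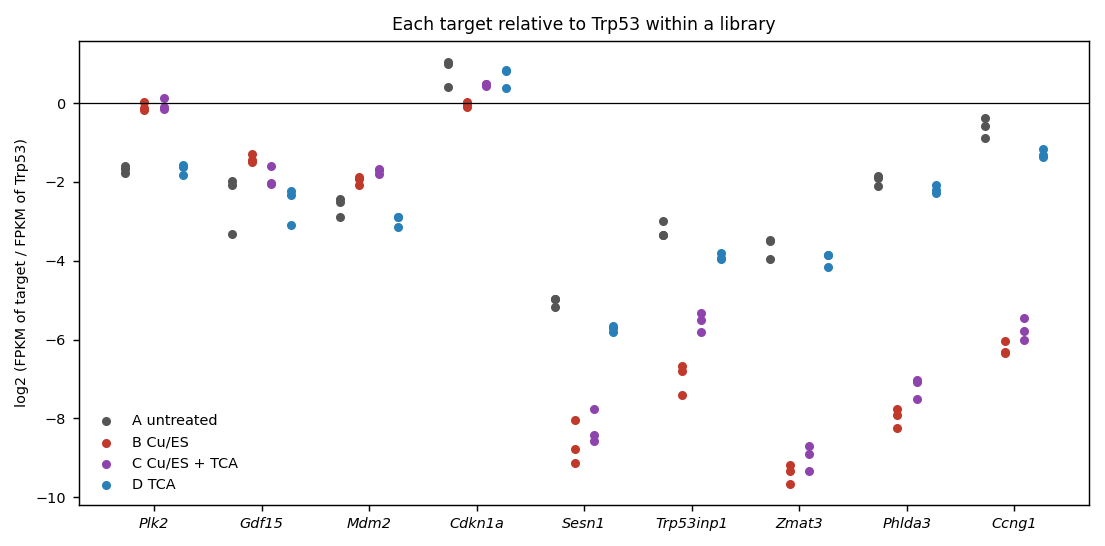
Log2 of the FPKM of each target over that of Trp53, 1 point per library, coloured by group. In groups A and D Cdkn1a stood above 0 in all libraries, in group B it lay between -0.09 and 0.04, and Sesn1, Trp53inp1, Zmat3, Phlda3 and Ccng1 lay far lower in groups B and C than in A and D.

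The effect of TCA on the copper-treated cells, group C against group B, was smaller. Trp53 fell 1.33-fold, from 219.7 ± 6.96 to 165.1 ± 1.65 FPKM (log2 change -0.41, SE 0.07, adjusted p = 3.90e-04), Plk2 1.29-fold to 161.5 ± 15.6 (-0.37, SE 0.09, adjusted p = 3.53e-03) and Gdf15 1.83-fold to 45.2 ± 8.20 (-0.87, SE 0.24, adjusted p = 0.0106). Trp53inp1 rose 1.99-fold, from 1.79 ± 0.412 to 3.57 ± 0.572 FPKM (0.71, SE 0.12, adjusted p = 4.54e-04). These 4 of 10 that passed the adjusted p compare with 43.99% of all tested genes. By limma none passed both thresholds (2.29% of all genes did), although 6 had an unadjusted p under 0.05, and 1 did in limma-voom, Trp53inp1 at 1.03. The Gdf15 call was lost after quantile normalization (adjusted p = 0.0665) and with no filter on low values (adjusted p = 0.0579), while without C replicate 2 its change was -1.01.

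The remaining 6 did not pass for TCA on top of CuCl2/ES. Mdm2, at 50.3 ± 2.63 FPKM in group C, changed by -0.16 (95% interval -0.32 to -0.01, adjusted p = 0.0864) and Phlda3, at 1.13 ± 0.195, by 0.18 (0.01 to 0.36, adjusted p = 0.0892). Phlda3 passed in TPM (0.30, adjusted p = 0.0340), after quantile normalization, with a pseudocount of 0.1 and without C replicate 3 (0.26, adjusted p = 0.0227). The intervals were -0.14 to 0.31 for Cdkn1a, -0.17 to 0.27 for Ccng1, -0.19 to 0.19 for Zmat3 and -0.28 to 0.26 for Sesn1.

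TCA alone, group D against group A, raised Trp53 1.31-fold, to 155.7 ± 8.13 FPKM (log2 change 0.39, SE 0.07, adjusted p = 2.00e-03), and Plk2 1.33-fold, to 49.0 ± 2.19 (0.40, SE 0.09, adjusted p = 5.65e-03). These 2 of 10 were both higher, as were 10.5% of all tested genes at the adjusted p, with 22.03% called in either direction. By limma none passed both thresholds, which 0.217% of all genes did, and 4 of the 10 had an unadjusted p under 0.05, among them Cdkn1a (0.26, 95% interval 0.03 to 0.48, adjusted p = 0.0901) and Ccng1 (-0.27, -0.49 to -0.05, adjusted p = 0.0787). Ccng1 passed in limma-voom (-0.26, adjusted p = 0.0189), after quantile normalization (-0.39, adjusted p = 0.0103), with only the groups compared (adjusted p = 0.0349) and without C replicate 2 or 3 (adjusted p = 0.0340 and 0.0476). Cdkn1a passed without D replicate 2 (0.36, adjusted p = 0.0227), the library lowest in that group. Mdm2 (19.8 ± 1.13 FPKM in group D), Zmat3 (10.1 ± 0.733), Phlda3 (34.2 ± 0.906), Sesn1 (2.94 ± 0.312), Trp53inp1 (10.5 ± 0.659) and Gdf15 (27.3 ± 7.11) did not pass, and the interval of Mdm2 was -0.12 to 0.19.

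The difference between these TCA effects was tested as an interaction, group C minus B less group D minus A. It passed for 4 of the 10 genes against 37.5% of all tested genes. Trp53 gave -0.80 (SE 0.10, adjusted p = 8.01e-05) and Plk2 -0.77 (SE 0.12, adjusted p = 4.01e-04), each higher with TCA in the absence of CuCl2/ES and lower in its presence. Trp53inp1 gave 0.96 (SE 0.18, adjusted p = 1.05e-03) and Gdf15 -1.16 (SE 0.35, adjusted p = 0.0181). The Gdf15 interaction was lost after quantile normalization (adjusted p = 0.0688) and with no filter on low values (adjusted p = 0.0832), and that of Ccng1 (0.32, adjusted p = 0.103) passed after quantile normalization (0.44, adjusted p = 0.0240) and without C replicate 2 (0.42, adjusted p = 0.0187).

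**Figure D4:**
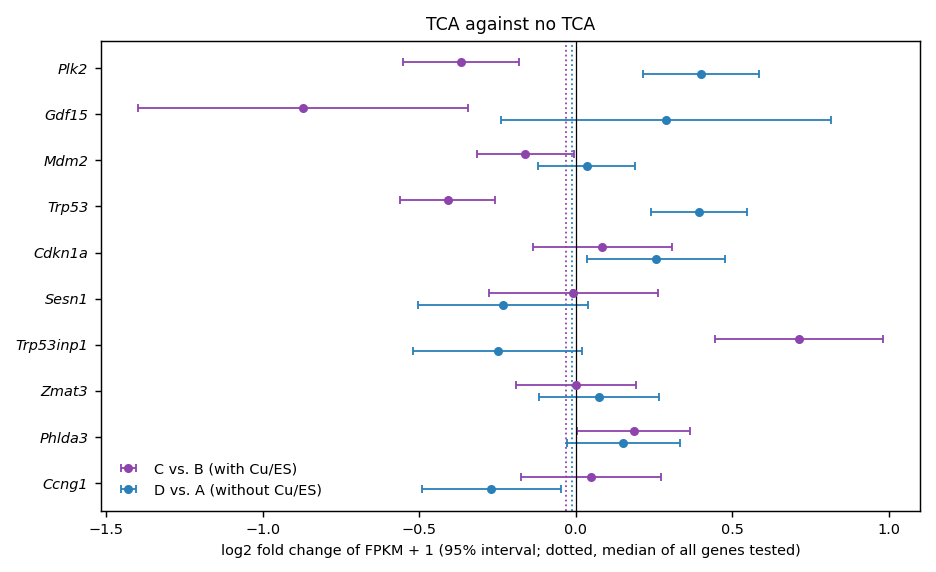
Log2 fold changes of FPKM + 1 with 95% intervals for TCA in cells with CuCl2/ES (C vs. B) and without it (D vs. A). Trp53 and Plk2 lie left of 0 with CuCl2/ES and right of 0 without it, and Trp53inp1 lies at 0.71 with CuCl2/ES and at -0.25 without.

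Genes around p53 also changed in both directions under CuCl2/ES. Of 36 further p53 targets tested, 8 were higher and 15 lower past both thresholds, against 10.1% and 52.96% of all tested genes, the shares that apply to each list below, with a median log2 change of -0.92 against -1.10 for all tested genes. Among 10 death targets, Bax, a pore-forming protein of apoptosis, rose from 75.97 ± 2.82 to 159.4 ± 6.55 FPKM (log2 change 1.06, adjusted p = 2.10e-10), and Ei24 fell from 28.1 ± 0.485 to 0.27999 ± 0.127 (-4.51, adjusted p = 1.85e-14). These were the extremes of a list with 1 higher and 2 lower past both thresholds.

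Of 12 targets in repair and metabolism, 3 were higher and 6 lower, again against 10.1% and 52.96% of all tested genes. Gadd45a, a stress sensor of growth arrest, rose from 48.1 ± 9.57 to 233.4 ± 12.1 FPKM (2.27, adjusted p = 1.60e-08), and Sesn3 fell from 11.5 ± 0.537 to 0.779 ± 0.173 (-2.82, adjusted p = 1.30e-11). Sesn2, named here although not an extreme of its list, rose from 29.5 ± 1.61 to 137.1 ± 9.21 FPKM (2.18, adjusted p = 4.91e-11) while Sesn1 and Sesn3 fell. Sesn2 is also induced by the integrated stress response, whose part was not tested. Among 14 other targets, 4 were higher and 7 lower, with Epha2, a receptor tyrosine kinase, at 3.07 (adjusted p = 1.88e-12) and Psrc1 at -4.55 (adjusted p = 5.09e-14).

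Of 15 genes that control p53, 1 was higher and 6 lower, beside the same 10.1% and 52.96% of all tested genes. Kat5, an acetyltransferase of p53, rose from 8.83 ± 0.164 to 24.5 ± 1.55 FPKM (1.37, adjusted p = 8.98e-11), and Pml, the organizer of nuclear bodies, fell from 7.11 ± 0.755 to 0.187 ± 0.030 (-2.77, adjusted p = 1.61e-12). Mdm4, the partner of MDM2, named here after its values were seen, fell from 24.4 ± 0.710 to 3.73 ± 0.225 FPKM (-2.42, adjusted p = 4.11e-11), opposite to Mdm2. Of 17 cell cycle genes, 1 was higher (Ccne2, a cyclin of the G1/S transition, 1.10) and 11 lower, led by Ccnd1, cyclin D1, from 78.9 ± 17.8 to 2.51 ± 0.279 FPKM (-4.49, adjusted p = 4.57e-12). Their median of -1.96 lay below that of all genes, and the Ccne2 count dropped to 0 without A replicate 2. Of 8 genes of the integrated stress response, 2 were higher and 1 lower, with Atf3 at 5.67 (adjusted p = 8.76e-15), from 8.06 ± 1.07 to 460.1 ± 27.9 FPKM, and Trib3 at -2.37 (adjusted p = 1.08e-12).

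**Figure D5:**
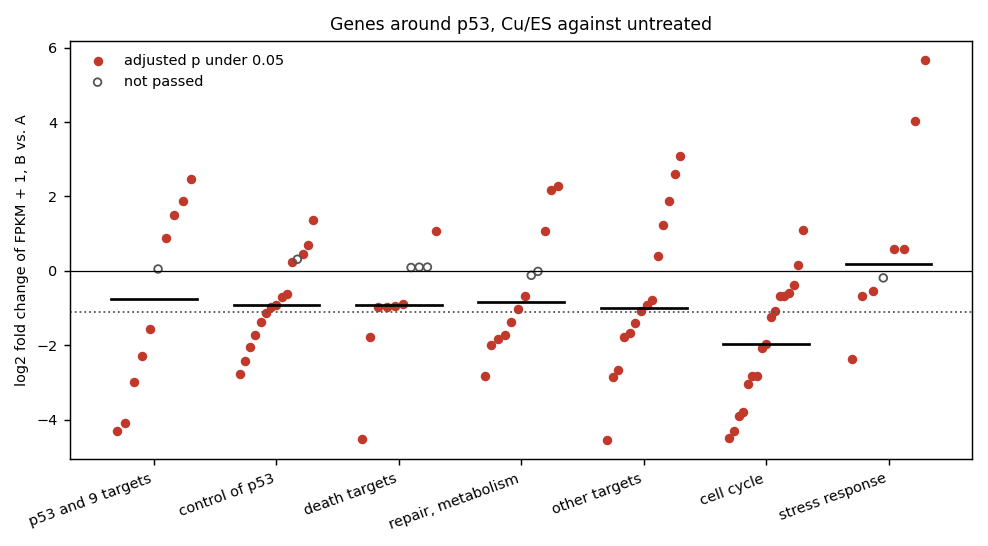
Log2 fold change of FPKM + 1 for CuCl2/ES against untreated cells, 1 point per gene, for the 10 genes and 6 lists around p53, with the median of each list (bar) and of all tested genes (dotted, -1.10). Every list holds genes on both sides of 0, and the cell cycle list has the lowest median, -1.96.

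For TCA on top of CuCl2/ES, 16 of the 36 further targets passed the adjusted p, 9 higher and 7 lower, against 20.4% and 23.6% of all tested genes. The nuclease Aen rose by 0.69 (adjusted p = 6.87e-05), Epha2 by 0.79 (adjusted p = 5.38e-05) and Sesn3 by 0.58 (adjusted p = 1.26e-03), while Rps27l fell by 1.02 (adjusted p = 6.54e-06), Pidd1 by 0.38 and Gadd45a by 0.50 (adjusted p = 0.038), the last a call lost without B replicate 1, 2 or 3 or C replicate 1 or 3 (adjusted p from 0.0581 to 0.144). Of 17 cell cycle genes 11 were lower and 0 higher, led by Bub1, a kinase of the spindle checkpoint (-1.0001, adjusted p = 1.34e-06), and among genes that control p53 the checkpoint kinase Chek1 fell the most (-0.61, adjusted p = 1.58e-04). In the stress response list Ppp1r15a rose by 0.43 (adjusted p = 0.0245) and Chac1 fell by 0.39 (adjusted p = 4.16e-03), and the Ppp1r15a call was lost without B replicate 1 or 3 or C replicate 1 or 2.

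For TCA alone, 15 of the 36 passed, 6 higher and 9 lower, against 10.5% and 11.5% of all tested genes, with Aen at 0.93 (adjusted p = 7.50e-05), Sesn2 at 0.62 (adjusted p = 1.36e-03), Epha2 at 0.47, Ephx1 at -0.81 (adjusted p = 2.93e-03), Ddb2, which recognizes damaged DNA, at -0.68 (adjusted p = 1.94e-03) and Pidd1 at -0.31 (adjusted p = 0.0359). Pidd1 no longer passed when any of 5 libraries was left out. Atm, the kinase that activates p53 after DNA breaks, was lower (-0.53, adjusted p = 5.78e-03), as was E2f1 (-0.51, adjusted p = 6.34e-04), and 7 of the 8 stress response genes were higher, led by Chac1 (0.77, adjusted p = 1.95e-04).

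The genes whose profiles lay closest to Trp53 were named by Euclidean distance over the 12 libraries, on log2 of FPKM + 1 after subtracting the group A mean. They were Ddx49 (0.38), Ppp2r2d (0.39) and Mapkapk5 (0.39). For Cdkn1a they were Cnih1 (0.35), Snrnp70 (0.37) and Derl1 (0.37), and for Mdm2 they were Azin1 (0.29), Scg2 (0.35) and Kat5 (0.36). These distances share the libraries and their scaling and were given no p.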

How the data were processed

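RNA was extracted with TRIzol and polyA libraries were made with the VAHTS Universal V6 kit. Per the labels and the study's methods, the authors trimmed reads with fastp, aligned them with HISAT2 to GRCm39 and counted genes with HTSeq (versions and strand setting not given in the sources used here), and they deposited FPKM for 24824 genes in 12 libraries. The study used a count model. Here log2(FPKM + 1) of 10615 genes with a mean of at least 1 FPKM was fitted with limma 3.58.1 (R 4.3.3; all libraries, mean-variance trend, two-sided, Benjamini-Hochberg over all genes tested), with thresholds of adjusted p 0.05 and absolute log2 fold change 1, those of the study. FPKM is scaled to each library's total, so a few abundant genes can shift the rest.

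Whole reads were recovered from the steps between FPKM values for 22212 of 22212 genes above 0 in at least 2 libraries (tolerance 0.0002 to 0.05 read), and gave library totals and the limma-voom alternative. Other alternatives were median-ratio, TPM and quantile scaling, pseudocount 0.1, no filter or a mean of at least 5 FPKM, no trend, only the groups compared, the replicate block and each library left out. The fit was tested on simulated data.

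Deviations of same-numbered libraries correlated at 0.142 to 0.174 between groups A and B, apart from other numbers (-0.131 to 0.004). They ran from 0.005 to 0.277 for B and C (others -0.321 to 0.181) and from 0.087 to 0.579 for A and D (others -0.51 to 0.367). For C and D they ran from -0.171 to 0.110 (others -0.143 to 0.217). The main fit and the exact tests used no pairing in any comparison, and replicate numbers entered only in the replicate block. Exact permutation tests used Python 3.11.15 and scipy 1.17.1. The 10 genes and the lists were chosen with earlier results of these data known. All 10 were named, and from each other list the largest rise and fall past the adjusted p in each of 3 comparisons. Mdm4 and, for B vs. A, Sesn2 were named outside this rule. Cdkn2a and Sco2 were not analysed here, and Trp63, Trp73, Perp and Gls2 did not reach the filter.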

Additional observations from a re-analysis of the deposited data

Results flagged for a closer look

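A difference between cells with and without CuCl2/ES in the effect of TCA was found for 4 of the 10 genes by the interaction test of limma, which 37.5% of all tested genes passed. For Trp53 the log2 difference was -0.80292 (-0.41 with CuCl2/ES and 0.39 without), for Plk2 -0.76739 (-0.37 and 0.40), for Trp53inp1 0.96202 (0.71 and -0.25) and for Gdf15 -1.1594 (-0.87 and 0.29). The adjusted p lay between 8.01e-05 for Trp53 and 0.0181 for Gdf15, whose call was lost after quantile normalization (adjusted p = 0.0688) and with no filter on low values (adjusted p = 0.0832). Groups of 3 libraries are too small to look for single libraries that stand apart.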

How the results depend on the processing

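For the counts of the 10 genes past both thresholds (past the adjusted p for the interaction) and the ratios to Trp53, 3 of 298 values under alternatives moved, counts by over 1.5 times and ratios by over the spread between libraries. Among all other values, such as fold changes of single genes and counts of lists and of all genes, 87 counts moved, 9 fold changes reversed, 34 lost and 22 gained a call. The number of the 10 genes past both thresholds stayed at 7 to 10 for B vs. A (8 in the main analysis) and 6 to 9 for C vs. D (7). For C vs. B it was 0, with 1 in limma-voom (Trp53inp1) and 0 to 1 when each library was left out (1 without C replicate 2, Gdf15). The ratio of Zmat3 to Trp53 for B vs. A, -5.76, was -5.39 with a pseudocount of 0.1. That of Gdf15, 1.04, ran from 0.61 to 1.29 with each library left out. Leaving out each library gave 8 to 8 genes past both thresholds for B vs. A, 7 to 7 for C vs. D, 0 to 0 for D vs. A and 4 to 5 past the adjusted p for the interaction.

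Directions turned with scaling for Cdkn1a in B vs. A (-0.32 in TPM, -0.40 after quantile normalization) and in C vs. D (1.09 in limma-voom, 1.13 with median ratios), for Trp53 in C vs. D (-0.20 in TPM and after quantile normalization) and for Wrap53 in B vs. A (0.75 in limma-voom, 0.68 with median ratios, 1.01 after quantile normalization). The median of all genes in B vs. A was -0.03 with median ratios, -0.10 after quantile normalization, -0.13 in limma-voom and -1.56 in TPM. All-gene counts moved with it, from 1070 higher and 5622 lower to 2870 and 3529 in limma-voom, 2753 and 2710 with median ratios and 2198 and 2353 after quantile normalization, and in C vs. D from 1189 and 5662 to 2916 and 3691, 2752 and 2887, and 2269 and 2448. The stricter filter left 3312 lower in B vs. A and 3453 in C vs. D. In C vs. B, 120 higher and 123 lower became 364 and 400 in limma-voom and 317 and 386 with a pseudocount of 0.1, with 241 higher in TPM, 63 higher under the stricter filter and 73 lower after quantile normalization. In D vs. A, 7 and 16 became 39 and 65 in limma-voom, 35 and 60 with a pseudocount of 0.1 and 16 and 43 in TPM, with 12 higher after quantile normalization, 9 lower with median ratios, 7 under the stricter filter and 27 without A replicate 2. Of the 36 further targets in B vs. A, 8 higher became 14 in limma-voom and 5 in TPM, and 15 lower became 9 with median ratios, 7 under the stricter filter and 5 after quantile normalization. Of the 17 cell cycle genes, 11 lower became 7 in limma-voom and with median ratios, and 1 higher became 2 in both and 0 in TPM and without A replicate 2. Of the 15 control genes, 1 higher became 5 in both and 3 after quantile normalization, and 6 lower became 10 in TPM, 3 in limma-voom, with median ratios and under the stricter filter, and 2 after quantile normalization. Of the 8 stress response genes, 2 higher became 4 in limma-voom and 5 with median ratios, and 1 lower became 2 in TPM. Of the further targets lower past the adjusted p, 7 in C vs. B became 4 under the stricter filter, and 9 in D vs. A became 3 there and with a pseudocount of 0.1. In D vs. A, 2 of the 10 genes past the adjusted p became 4 with only the groups compared.

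With the replicate block, B vs. A kept 8 of the 10 genes past both thresholds and C vs. D 7, and it changed no call of the 10 in B vs. A. In other comparisons, the block brought Mdm2 in C vs. B (-0.16, adjusted p = 0.0323) and Cdkn1a in D vs. A (0.26, adjusted p = 0.0457) under 0.05. Depth limits Phlda3, Sesn1 and Zmat3 in groups B and C, where 1 library holds as few as 35 reads of Phlda3.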
